A study of Mus musculus with 30 samples.

Results

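The heat shock and cytosolic chaperone genes are 33 genes of mouse, chosen by symbol and found by Ensembl identifier, from 3 tables of gene counts: one on fasting with 52286 genes, one on refeeding with 55401 and one on the month after the fast with 22371. All 33 were in each table and all 33 passed the filter on low counts in each comparison. They were made up of 6 Hsp70 and Hsp110 chaperones, 2 Hsp90 chaperones, 2 small heat shock proteins, 2 mitochondrial chaperonins, 4 J proteins, 8 co-chaperones, 7 subunits of the cytosolic chaperonin CCT and 2 heat shock factors.

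Total RNA of the hypothalamus, the brain region that governs feeding and body temperature, was sequenced from mice that were WT and of the B6 (C57BL/6) strain in all groups. In the fasting table there were 3 libraries from a 24 h fast, 3 from a 72 h fast, 3 from a 72 h fast combined with cold treatment at 18 C, and 3 from fed animals. The refeeding table held animals that had fasted for 72 h and then fed again for 1 h (n = 3), 12 h (n = 3) or 1 week (n = 4), and the 1-month table held animals refed for 1 month after the same fast (n = 4) and their own fed controls (n = 4). The labels give no age, no housing temperature for the groups without cold and no word on whether each library was a separate animal, so p-values measure only the spread between these samples.

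Heat shock proteins are chaperones: they hold unfolded proteins, refold them, or pass them on to folding chambers and to degradation. When misfolded protein accumulates, heat shock factor 1 (Hsf1) is released from its chaperone partners, binds heat shock elements in promoters and switches on inducible members such as Hspa1a, Hspa1b, Hspb1 and Dnajb1, whereas constitutive members such as Hspa8, Hsp90ab1 and the CCT subunits are made in unstressed cells too. In neurons the constitutive chaperones are abundant and act in synaptic vesicle recycling and in the folding of cytoskeletal proteins.

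A heat shock element is a run of the unit GAA and its inverse TTC, spaced by 2 bases. Promoter windows of 300 bases (250 before and 50 after the transcript start, RefSeq, GRCm38.p6) were held for 26 of the 33 genes. Those of Hspa8, Hsp90aa1, Hsp90ab1, Cryab, Cct4, St13 and Hsf1 were not among them. The 3-unit element, GAANNTTCNNGAA or TTCNNGAANNTTC searched on both strands, was present in the windows of 4 of the 26 genes, against 0.662% of the 27025 genes in the table. These 4 were Chordc1, Hsph1, Hspe1 and Hspd1, and the last pair lie head to head and share 1 stretch of DNA that holds the element. The 2-unit element, GAANNTTC or TTCNNGAA, which every 3-unit element contains, was present in 13 of the 26, against 17.0% of genes. Where a gene had more than 1 start, the window with the most matches was used. The windows below are shown because Chordc1 and Hsph1 were the members with the smallest adjusted p in the 72 h fast and Hsph1 had the smallest after 12 h of refeeding, because Hspe1 shows the element shared by the chaperonin pair, and because Hspa1a and Hspa1b are so alike that their reads are hard to tell apart. Capitals mark the 2-unit and 3-unit elements.
Chordc1 promoter (chr9:18292017-18292316, plus strand): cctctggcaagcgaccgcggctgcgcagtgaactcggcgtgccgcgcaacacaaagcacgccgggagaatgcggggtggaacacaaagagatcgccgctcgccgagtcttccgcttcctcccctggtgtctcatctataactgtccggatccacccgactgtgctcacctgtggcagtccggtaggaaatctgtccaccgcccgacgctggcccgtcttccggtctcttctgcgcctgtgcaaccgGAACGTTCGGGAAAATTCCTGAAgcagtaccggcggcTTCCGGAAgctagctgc
Hsph1 promoter (chr5:149636287-149636586, minus strand): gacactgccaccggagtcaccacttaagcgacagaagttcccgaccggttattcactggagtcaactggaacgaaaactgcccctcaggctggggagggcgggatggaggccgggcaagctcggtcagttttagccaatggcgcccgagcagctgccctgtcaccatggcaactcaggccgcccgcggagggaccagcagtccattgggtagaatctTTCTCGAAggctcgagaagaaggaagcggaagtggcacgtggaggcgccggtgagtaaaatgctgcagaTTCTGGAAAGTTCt
Hspe1 promoter (chr1:55087898-55088197, plus strand): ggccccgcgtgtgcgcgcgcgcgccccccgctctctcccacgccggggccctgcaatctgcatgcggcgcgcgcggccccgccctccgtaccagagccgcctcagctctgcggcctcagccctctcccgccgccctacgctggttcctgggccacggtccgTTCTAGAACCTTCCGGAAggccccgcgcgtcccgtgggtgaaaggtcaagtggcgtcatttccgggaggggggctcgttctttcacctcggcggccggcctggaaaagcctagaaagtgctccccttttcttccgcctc
Hspa1a promoter (chr17:34972107-34972406, minus strand): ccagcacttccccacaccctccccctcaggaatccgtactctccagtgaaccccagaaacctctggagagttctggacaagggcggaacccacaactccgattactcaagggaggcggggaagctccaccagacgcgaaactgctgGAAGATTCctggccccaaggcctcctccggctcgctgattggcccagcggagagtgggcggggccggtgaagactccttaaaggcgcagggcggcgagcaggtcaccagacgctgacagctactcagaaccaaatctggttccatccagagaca
Hspa1b promoter (chr17:34959189-34959488, minus strand): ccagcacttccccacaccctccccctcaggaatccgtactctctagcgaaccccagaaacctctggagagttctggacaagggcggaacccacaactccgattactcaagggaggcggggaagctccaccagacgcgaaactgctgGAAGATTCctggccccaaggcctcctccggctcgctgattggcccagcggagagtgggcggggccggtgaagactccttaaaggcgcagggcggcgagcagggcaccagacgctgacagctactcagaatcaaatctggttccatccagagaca

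In the Chordc1 window 3 overlapping 3-unit elements form a single block that starts 4 bases before the transcript start and ends at base 19 after it. In Hsph1 the 3-unit element lies between bases 37 and 49 after the start, with a 2-unit element between 33 and 26 bases before it. In Hspe1 the block lies between 89 and 72 bases upstream. Hspa1a and Hspa1b each had 1 match to the 2-unit element, at the same place, and their windows differed at 4 of 300 positions. The window of Dnajb1, named above as inducible, had 0 matches of either kind. Only exact units were searched, so a run with a changed base in a unit was not counted. A match is a description of the letters, not a bound site, and the lack of a match does not show that a site is absent.

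**Figure D1:**
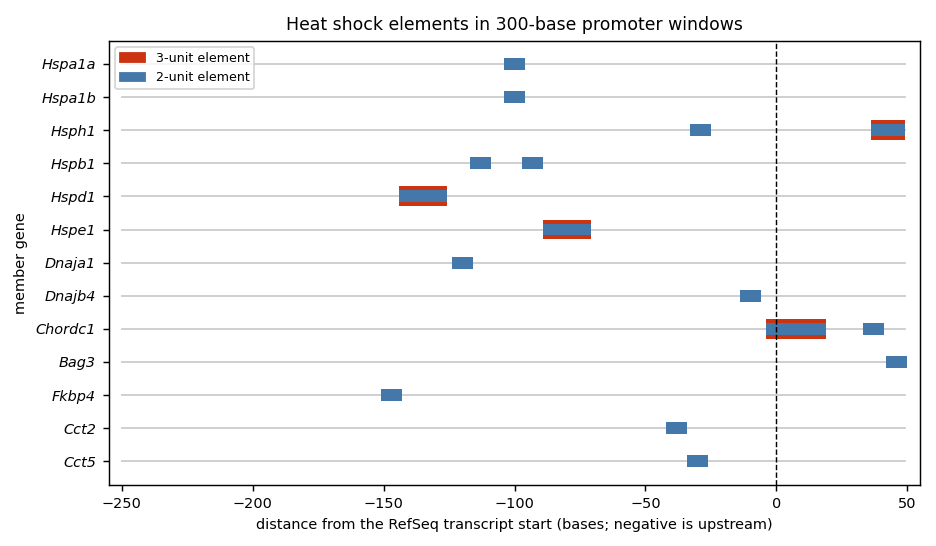
Positions of heat shock elements in the 13 member promoters that held at least 1, as distance in bases from the RefSeq transcript start (horizontal axis), 1 gene per line. Wide red blocks are 3-unit elements and narrower blue blocks 2-unit elements drawn over them; 4 genes have a 3-unit element, which lies upstream in Hspd1 and Hspe1, after the start in Hsph1 and across the start in Chordc1.

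Levels are given as CPM, counts scaled to the size of each library after TMM normalization. The genes span a wide range of them. Per kilobase of exon in the 1-month table, in which genes that overlap others kept their counts, Hspa8, the constitutive Hsp70 that uncoats clathrin vesicles, was highest at 636 ± 38.6 CPM per kb in refed and 596 ± 55.7 CPM per kb in control libraries (SD, n = 4 each). Hsp90ab1, the constitutive cytosolic Hsp90, followed at 555 ± 25.4 and 550.3 ± 27.2 CPM per kb, and its inducible partner Hsp90aa1 at 254 ± 8.43 and 237 ± 33.02 CPM per kb. The libraries of Hspa8 and Hsp90ab1 overlapped on this scale in both groups, so their order is not beyond their spread, and both lay above Hsp90aa1. The inducible Hsp70 genes were near the bottom of the order: Hspa1b had 5.18 ± 0.346 and 5.32 ± 0.653 CPM per kb and Hspa1a 4.94 ± 0.972 and 5.72 ± 0.554 CPM per kb. The order of these neighbours was not the same in every library.

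Hspa1a (ENSMUSG00000091971, chromosome 17, 34969190 to 34972156, minus strand, GRCm38) is a special case. It had 13 to 65 counts per library in the fasting table and 12 to 49 in the refeeding table, against 120 to 264 in the 1-month table, where libraries were less deep. Over 75% of its span it is overlapped by Gm20481 on the other strand. The coding sequences of Hspa1a and Hspa1b (ENSMUSG00000090877, chromosome 17, 34956436 to 34959238, minus strand) were 99.6% identical over 1923 aligned bases, with an identical run of 638 bases, so the authors' counting could split or drop reads of this pair. Their values are uncertain throughout. Cryab (19.4% of its span overlapped by other genes) and Tcp1 (23.1%) share smaller parts, and the other 30 genes at most 7.18%.

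Libraries did not all behave alike. At 24 h, library 2 was the highest of its group for 32 of the 33 genes, against 44.2% of all genes tested, and its members summed to 7485 CPM, against 5247 and 5413 CPM in libraries 1 and 3. Fed library 3 was the lowest of the fed libraries for 27 members, against 40.01% of all genes, with a sum of 6061 CPM against 7727 and 7088 CPM in fed libraries 1 and 2. Among the cold libraries number 3 was the highest for 28, and among the 1-week libraries number 2 was the highest for 27. Fed library 2 also held RNA of other tissues: the fed libraries' summed levels spanned 2.01 to 793 CPM for 6 liver genes and 2.200 to 1129 CPM for 6 skeletal muscle genes, and the top of both ranges was library 2. Liver RNA was not confined to that library. The same 6 liver genes summed to 41.96 to 141 CPM in the 24 h libraries, against 1.48 to 1.58 CPM in the 72 h ones. Of 19 hypothalamic marker genes 18 were tested in every table, and Kiss1 was not. In bulk tissue, fewer cells of a type and less RNA per cell cannot be told apart. Depth was 27111216 to 43397395 counts per library in the fasting table, 26115967 to 64269426 in the refeeding table and 9347942 to 13813956 in the 1-month table.

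The 24 h fast was set against feeding to ask what a short fast does to these genes. No member was called higher or lower at an adjusted p below 0.05, from edgeR's quasi-likelihood test with Benjamini-Hochberg adjustment over all 20408 genes tested. DESeq2 also called 0, and 1 member reached 0.05 before adjustment. Differences are log2 fold changes ± SE of the first-named group over the second. Over all genes 0.0245% were called higher and 0.0098% lower. Of the 33 log2 fold changes 28 were negative, with a median of -0.12 against 0.0043 over all genes. The genes with the smallest unadjusted p were Hsph1, an Hsp110 exchange factor that resets Hsp70, at -0.35 ± 0.16 (unadjusted p = 0.0413), Hsf1 at 0.24 ± 0.12 (unadjusted p = 0.0664) and Cryab at -0.41 ± 0.21 (unadjusted p = 0.0677), none with an adjusted p under 0.466. Without library 2 of the 24 h group 31 fold changes were negative, the median was -0.29 and 23 members had an unadjusted p below 0.05, but still 0 were called.

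In the 24 h libraries Hspa8 had 1262, 1860.1 and 1341 CPM, against 2105, 1857 and 1559 CPM in fed libraries 1 to 3. Hspa1b had 7.604, 17.4 and 7.996 CPM at 24 h, against 9.52, 9.83 and 10.6 CPM when fed, and Dnajb1 had 34.04, 54.2 and 37.1 CPM at 24 h, against 42.5, 43.8 and 36.2 CPM when fed. Library 2 stood well above its 2 fellows in all 3 genes, and in the inducible pair above every fed library too. Hsp90aa1 had 658, 1077 and 678 CPM, Hsp90ab1 560.5, 789 and 563 CPM, Hspb1 4.19, 8.01 and 3.61 CPM and Hspa1a 1.13, 1.74 and 1.24 CPM at 24 h. Hsf1 ran the other way, with 32.4, 25.5 and 35.9 CPM at 24 h, against 24.96, 25.1 and 29.2 CPM when fed, and library 2 the lowest. All 8 genes overlapped between the groups. Liver genes summed to 41.96 to 141 CPM at 24 h and 2.01 to 793 CPM in fed libraries, and their part was not tested.

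After 72 h of fasting the chaperone genes as a group were lower than in fed animals. Of the 33, 20 fell and 1, Hsf1, rose, against 7.78% of all genes called lower and 7.28% called higher. A further 10 had an unadjusted p below 0.05 without passing adjustment, and 32 of 33 fold changes were negative. The median log2 fold change was -0.49, against 0.0076 over all genes tested. Calls of a fall came from every class but the heat shock factors.

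**Figure D2:**
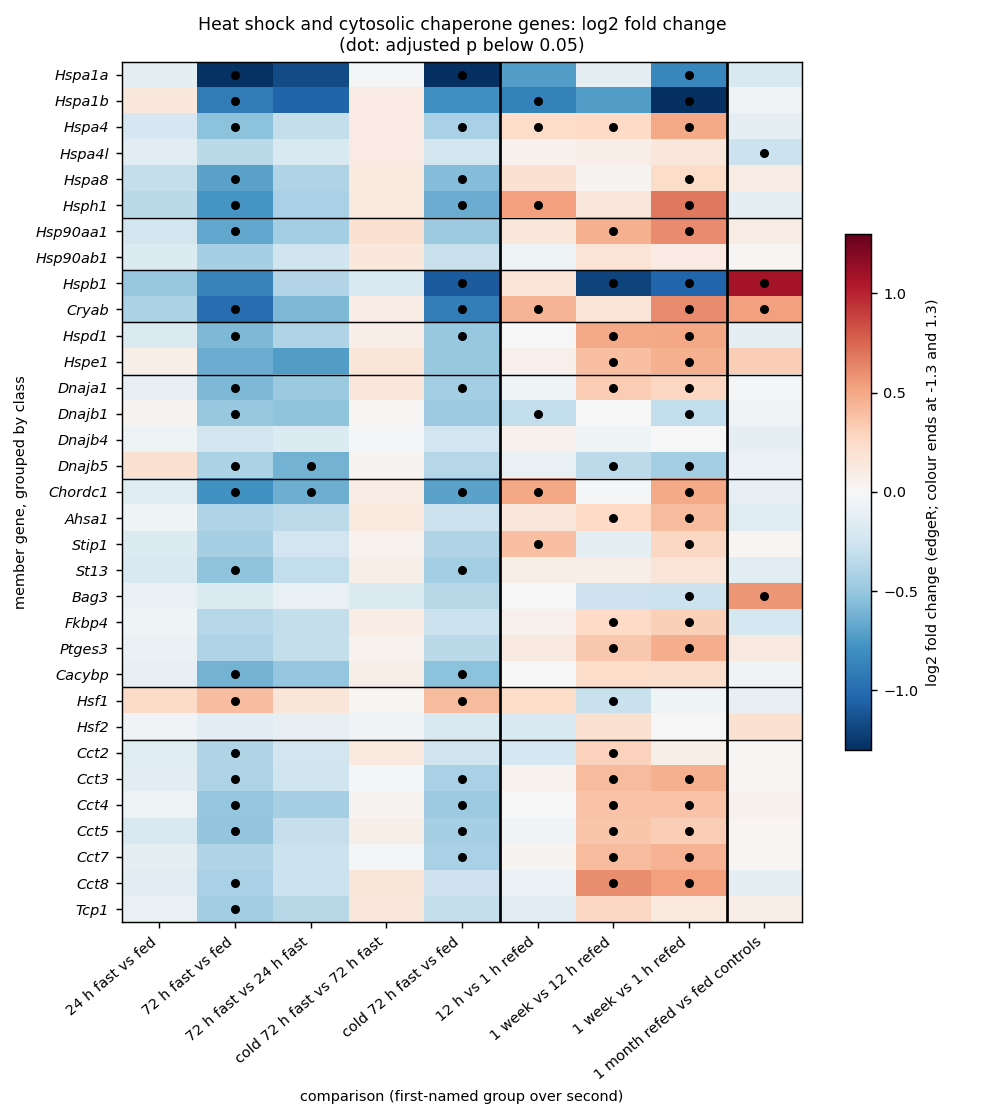
Log2 fold change of each of the 33 genes (rows, grouped by class with lines between classes) in each of the 9 comparisons (columns, first-named group over second; thick lines separate the 3 count tables). Blue is lower, red is higher, and a dot marks an adjusted p below 0.05: the columns of the 72 h groups against fed are blue in all rows but Hsf1, the 1-week columns have 23 (against 12 h) and 25 (against 1 h) of 33 rows on the red side, and the 1-month column has dots at Hspb1, Bag3, Cryab and Hspa4l.

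Among the Hsp70 and Hsp110 chaperones 5 of 6 fell. Hspa8 (ENSMUSG00000015656, chromosome 9, 40800984 to 40810087, plus strand) had 1160.2, 1133 and 1119 CPM in 72 h libraries 1 to 3, against 2105, 1857 and 1559 CPM in fed libraries 1 to 3, a log2 fold change of -0.69 ± 0.16 (adjusted p = 0.0197). The 72 h libraries lay close together and all below the fed ones. Hsph1 (ENSMUSG00000029657, chromosome 5, 149614287 to 149636376, minus strand) had 178, 171 and 126 CPM at 72 h, against 290.2, 277 and 243 CPM in fed libraries (-0.77 ± 0.16, adjusted p = 0.0131). Hspa4, another Hsp110-type exchange factor, averaged 167 ± 9.44 CPM at 72 h and 241 ± 21.4 CPM in fed animals (SD, n = 3 each; -0.53 ± 0.12). Its groups did not overlap either. The inducible Hspa1b had 5.28, 6.23 and 4.43 CPM at 72 h, against 9.52, 9.83 and 10.6 CPM when fed (-0.91 ± 0.27, adjusted p = 0.0389), and Hspa1a had 0.785, 0.7596 and 0.295 CPM at 72 h, against 0.9103, 1.66 and 1.85 CPM when fed (-1.28 ± 0.39, adjusted p = 0.0447). Both are of uncertain counting, as above. Hspa4l, the remaining member, was at -0.35 ± 0.13 (adjusted p = 0.0756).

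Of the Hsp90 chaperones, which mature kinases and steroid receptors, Hsp90aa1 (ENSMUSG00000021270, chromosome 12, 110690605 to 110702728, minus strand) fell: it had 642, 599 and 538 CPM at 72 h, against 1078, 948 and 812 CPM in fed libraries (-0.67 ± 0.19, adjusted p = 0.0341). The constitutive Hsp90ab1 had 544, 541 and 517 CPM at 72 h, against 783, 757 and 622 CPM in fed libraries, groups that did not overlap but whose difference missed the threshold (-0.43 ± 0.14, adjusted p = 0.0541). Cryab, the small heat shock protein alpha-B crystallin, made in oligodendrocytes and astrocytes, fell to 38.1, 37.6 and 32.3 CPM at 72 h, against 80.3, 77.9 and 56.8 CPM in fed libraries (-0.99 ± 0.21, adjusted p = 0.015). Every 72 h library was well under every fed one. Hspb1 (Hsp27, which stabilises actin and is prominent in vessel walls) had 4.79, 4.65 and 2.68 CPM at 72 h, against 8.19, 7.22 and 6.75 CPM when fed, groups that did not overlap but missed the threshold (-0.87 ± 0.29, adjusted p = 0.0562).

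Chordc1 (ENSMUSG00000001774, chromosome 9, 18292125 to 18317442, plus strand), an Hsp90 co-chaperone of the CHORD type, had the smallest adjusted p of all members. Its levels were 62.8, 69.5 and 63.4 CPM in 72 h libraries 1 to 3, against 115, 115 and 109 CPM in fed libraries (-0.79 ± 0.10, adjusted p = 0.005). The 6 libraries formed a low and a high group far apart, and Chordc1 was the only member called lower without any 1 of the 6. Other co-chaperones called lower were St13, which binds Hsp70 (-0.52 ± 0.11), and Cacybp, a protein that binds calcyclin and the ubiquitin ligase Siah1 (-0.61 ± 0.16). The remaining 5, Ahsa1, Stip1, Bag3, Fkbp4 and Ptges3, lay between -0.43 and -0.18 without passing.

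Of the J proteins, which deliver clients to Hsp70, Dnaja1 (-0.59 ± 0.14), Dnajb1 and Dnajb5 (-0.41 ± 0.13) fell. Dnajb1, the main stress-inducible J protein, had 27.2, 27.5 and 32.5 CPM at 72 h, against 42.5, 43.8 and 36.2 CPM in fed libraries (-0.49 ± 0.15, adjusted p = 0.049), so that its highest fasted library was just under its lowest fed one. Hspd1 (Hsp60, the barrel of the mitochondrial chaperonin) fell to 109 ± 4.93 CPM at 72 h, against 163 ± 24.8 CPM when fed (SD, n = 3 each; -0.58 ± 0.15, adjusted p = 0.026). Its lid Hspe1 was at -0.65 ± 0.21 without passing (adjusted p = 0.0541). Of the 7 CCT subunits, which fold actin and tubulin, 6 fell, among them Cct5 (-0.51 ± 0.13) and Cct3 (-0.40 ± 0.10), with log2 fold changes of all 7 from -0.51 to -0.39.

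Hsf1 (ENSMUSG00000022556, chromosome 15, 76477422 to 76501913, plus strand), the transcription factor of the heat shock response, was the 1 member that moved the other way. It had 32.4, 36.8 and 35.5 CPM in 72 h libraries, against 24.96, 25.1 and 29.2 CPM in fed libraries (0.40 ± 0.12, adjusted p = 0.043). All fasted libraries were above all fed ones. Hsf2 was at -0.15 ± 0.09 (adjusted p = 0.253).

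**Figure D3:**
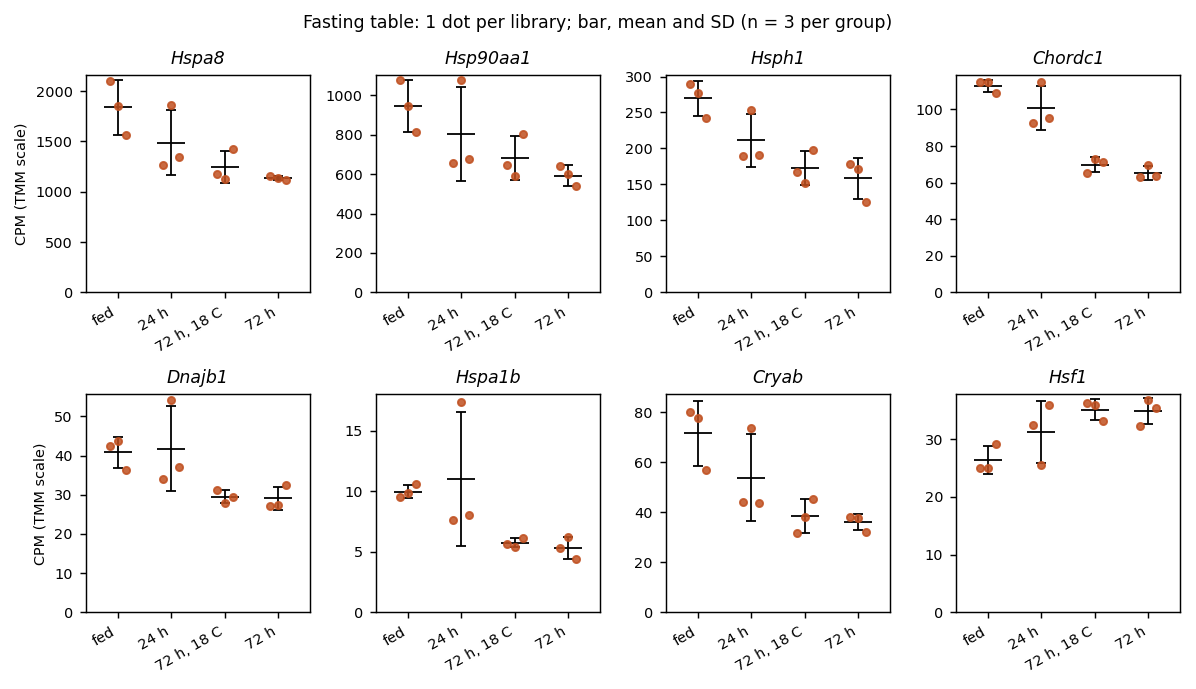
CPM (vertical axis, from 0) of 8 members in the 12 libraries of the fasting table. Dots are libraries, the long bar is the mean and the whisker the SD (n = 3 per group): the means of 7 genes are lower and that of Hsf1 higher in both 72 h groups than in fed animals, and at 24 h 1 of the 3 dots, library 2, lies above the others in the 7 and below them in Hsf1.

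The number of calls depended on single libraries. Leaving out 72 h library 1, 2 or 3 left 7, 4 or 1 members called, and leaving out fed library 1 or 2 left 3 or 2, all lower, whereas without fed library 3 there were 26 lower and 1 higher. The share of all genes called in these fits is not given here. Such counts therefore do not tell a change among the members from a change over all genes, here and in the other comparisons. With 1 surrogate variable in the fit 0 members and 5 genes in all were called.

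Markers of other cells and regions moved in the same comparison. Called lower at 72 h were 7 of 10 endothelial genes (summed level 228 to 241 CPM at 72 h, 324 to 348 CPM in fed libraries), 4 of 8 smooth muscle and pericyte genes (84.5 to 104 CPM at 72 h, 166 to 199 CPM fed) and 5 of 9 choroid plexus genes (27.6 to 40.6 CPM at 72 h, 54.3 to 242 CPM fed). Lower too were 7 of 12 markers of striatal projection neurons (449 to 532 CPM at 72 h, 698 to 1194 CPM fed), 1 of 5 astrocyte genes, 0 of 7 oligodendrocyte genes and 0 of 4 pan-neuronal genes. All 4 tested blood genes (0.841 to 2.33 CPM at 72 h, 7.35 to 16.2 CPM fed), 5 of 6 liver genes (1.48 to 1.58 CPM at 72 h, 2.01 to 793 CPM fed) and all 4 tested skeletal muscle genes (1.45 to 2.004 CPM at 72 h, 2.200 to 1129 CPM fed) were lower too. Alas2 of the blood list and Acta1 of the muscle list were at 0 counts. Across 20357 genes the log2 fold change rose with the length of the gene span (Spearman's rho = 0.226, a description). The part of these differences in the chaperone result was not tested.

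Set against the 24 h fast, the 72 h fast had 2 members lower and 0 higher, against 1.06% and 0.568% of all genes. Chordc1 had 62.8, 69.5 and 63.4 CPM at 72 h, against 92.8, 115 and 95.3 CPM at 24 h (-0.63 ± 0.10, adjusted p = 0.0117), and Dnajb5 had 40.3, 31.6 and 35.6 CPM at 72 h, against 52.6, 64.8 and 47.00 CPM at 24 h (-0.61 ± 0.13, adjusted p = 0.0387). Neither pair of groups overlapped. In all, 21 members had an unadjusted p below 0.05, 32 fold changes were negative, and the median was -0.34. Hspa1b (-1.05 ± 0.27), Hspa1a (-1.16 ± 0.39), Dnajb1 (-0.52 ± 0.15), Hspa8 (-0.39 ± 0.16), Hsp90aa1 (-0.44 ± 0.19), Hsp90ab1 (-0.26 ± 0.14), Hspb1 (-0.38 ± 0.29) and Hsf1 (0.16 ± 0.12) did not pass. Without 24 h library 2 or 72 h library 1 only 1 call was left, without 72 h library 2 or 3 there was 0, DESeq2 called 9 lower, and with 1 surrogate variable 0 were called. In the same comparison 8 of 12 markers of striatal projection neurons were lower (449 to 532 CPM at 72 h, 1105 to 1204 CPM at 24 h), and the log2 fold change went with the gene span at rho = 0.292. Of 6 liver genes 0 were called, but they summed to 1.48 to 1.58 CPM at 72 h, against 41.96 to 141 CPM at 24 h. The part of these in the result was not tested.

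Cold treatment at 18 C during the 72 h fast was not followed by a detected change in any member. Of the 33, 0 were called in either direction by edgeR or DESeq2 and 0 had an unadjusted p below 0.05; over all genes 0% were called higher and 0% lower by edgeR, with 1296 of 20408 at an unadjusted p below 0.05 and 57 called by DESeq2. Log2 fold changes lay between -0.20 (Hspb1) and 0.20 (Hsp90aa1), with a median of 0.083 against -0.0033 over all genes. They were positive in 26 members and negative in 7. Cold library 3 was the highest of its group for 28 members, against 36.6% of all genes tested. The smallest unadjusted p values were 0.214 for Cct8 (0.15 ± 0.12), 0.27 for Bag3 (-0.19 ± 0.16) and 0.272 for Cct2 (0.13 ± 0.11). The inducible genes were at 0.11 ± 0.27 for Hspa1b, -0.03 ± 0.41 for Hspa1a, 0.02 ± 0.15 for Dnajb1 and -0.20 ± 0.29 for Hspb1. Hspa8 had 1177, 1127 and 1428 CPM in cold libraries, against 1160.2, 1133 and 1119 CPM at 72 h, and Hsf1 had 36.3, 36.04 and 33.2 CPM in cold libraries, against 32.4, 36.8 and 35.5 CPM at 72 h. Cold library 3 was the highest of its group in Hspa8 and the lowest in Hsf1. In cold libraries 1 to 3 Hspa1b had 5.65, 5.39 and 6.13 CPM, Hspa1a 0.489, 0.602 and 0.691 CPM, Dnajb1 31.1, 27.9 and 29.4 CPM, Hsp90aa1 646, 591 and 805 CPM and Hsp90ab1 567, 553 and 645 CPM. Of these 5 only Hsp90ab1 did not overlap with the 72 h group, and its difference did not pass (adjusted p = 0.952).

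Against fed animals, the cold 72 h group had 15 members lower and 1 higher, against 9.16% and 8.78% of all genes. This comparison shares its fed libraries with that of the 72 h fast, so the 2 are not independent. Chordc1 had 65.2, 73.2 and 71.3 CPM in cold libraries, against 115, 115 and 109 CPM in fed libraries (-0.69 ± 0.10, adjusted p = 0.00266). Hspb1 had 3.03, 3.68 and 3.79 CPM in cold libraries, against 8.19, 7.22 and 6.75 CPM in fed ones (-1.08 ± 0.29, adjusted p = 0.0267), with no overlap. The others called lower, in order of adjusted p, were Cryab (-0.90), Hsph1 (-0.65), St13 (-0.44), Cct3 (-0.42), Hspa4 (-0.42), Hspa8 (-0.56), Hspd1 (-0.50), Cct4, Hspa1a (-1.31), Dnaja1, Cacybp, Cct5 and Cct7, and Hsf1 was higher (0.41 ± 0.12). Without cold library 1, 2 or 3 there were 1, 2 or 11 calls, without fed library 1, 2 or 3 there were 2, 1 or 21, and with 1 surrogate variable 0. Hsp90aa1 (-0.47 ± 0.19), Hsp90ab1 (-0.29 ± 0.14), Hspa1b (-0.80 ± 0.27) and Dnajb1 (-0.47 ± 0.15) did not pass. Of the endothelial genes 8 of 10 were lower here (192 to 233 CPM in cold libraries, 324 to 348 CPM in fed ones), as were 4 of 8 smooth muscle and pericyte genes (71.4 to 98.2 CPM in cold libraries, 166 to 199 CPM fed) and 4 of 6 tested meningeal genes (410.3 to 637 CPM in cold libraries, 408 to 575 CPM fed, Igf2 at 0). Lower too were 7 of 12 markers of striatal projection neurons (502 to 781 CPM in cold libraries, 698 to 1194 CPM fed), 5 of 9 choroid plexus genes (25.96 to 34.3 CPM in cold libraries, 54.3 to 242 CPM fed), 3 of 4 tested blood genes (1.44 to 2.31 CPM in cold libraries, 7.35 to 16.2 CPM fed, Alas2 at 0), 5 of 6 liver genes (0.795 to 1.87 CPM in cold libraries, 2.01 to 793 CPM fed) and all 4 tested skeletal muscle genes (0.951 to 1.14 CPM in cold libraries, 2.200 to 1129 CPM fed, Acta1 at 0). The fed ranges of liver and muscle have fed library 2 at their top, as above. The log2 fold change went with the gene span here at rho = 0.263. Their part in the result was not tested.

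In the refeeding table the first question was what changed between 1 h and 12 h of feeding after the fast. No clock time of collection entered these fits, so hours of feeding and time of day cannot be told apart in them. At 12 h, 5 members were higher and 2 lower than at 1 h, against 7.08% and 7.14% of all genes. The Hsp110 genes Hsph1 and Hspa4, the Hsp90 co-chaperones Chordc1 and Stip1 and the small heat shock protein Cryab rose. Hspa1b and Dnajb1 fell, a share of members (6.06%) no larger than that of all genes called lower. Hsph1 had 245, 216 and 217 CPM at 12 h, against 155, 157 and 156 CPM at 1 h (0.54 ± 0.08, adjusted p = 0.00119). Chordc1 had 83.00, 67.9 and 74.9 CPM at 12 h, against 46.8, 53.02 and 59.3 CPM at 1 h (0.50 ± 0.11, adjusted p = 0.0113). In both genes the groups were apart, most clearly in Hsph1, whose 1 h libraries were nearly equal. Stip1, the adaptor that joins Hsp70 to Hsp90, had 181, 175 and 173 CPM at 12 h, against 130.5, 142 and 132 CPM at 1 h (0.39 ± 0.07, adjusted p = 0.00316), and Cryab had 35.9, 37.3 and 34.9 CPM at 12 h, against 27.96, 27.9 and 23.98 CPM at 1 h (0.44 ± 0.09, adjusted p = 0.00518). These 4 kept their calls without any 1 of the 6 libraries. Hspa4 (0.24 ± 0.08, adjusted p = 0.0452) lost its call when any 1 library was left out.

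Hspa1b had 12.99, 10.8 and 12.5 CPM at 12 h, against 27.03, 27.03 and 12.9 CPM at 1 h (-0.88 ± 0.25, adjusted p = 0.0479). Of the 1 h libraries, 1 and 2 were high and library 3 was at the level of the 12 h group, so the groups overlapped. Dnajb1 had 42.2, 38.4 and 36.7 CPM at 12 h, against 52.03, 53.3 and 40.96 CPM at 1 h (-0.32 ± 0.09, adjusted p = 0.0344), with 1 h library 3 inside the 12 h range. Both calls were lost without 1 h library 1 or 2 and without 12 h library 2 or 3, each of which left 4 members called, all higher, and that of Hspa1b also without 12 h library 1. Among the rest Hspa8 (0.20 ± 0.08), Hsp90aa1 (0.15 ± 0.10), Hsp90ab1 (-0.07 ± 0.08), Hspb1 (0.17 ± 0.19), Hspa1a (-0.72 ± 0.34) and Hsf1 (0.24 ± 0.09) did not pass, and the 7 CCT subunits lay within -0.23 to 0.05 with 0 called. Hspa8 had 1480.2, 1331 and 1298 CPM at 12 h, against 1185, 1227 and 1157 CPM at 1 h, groups that did not overlap. Hsf1 had 43.96, 55.2 and 53.1 CPM at 12 h, against 40.8, 40.6 and 47.6 CPM at 1 h, and Hspb1 had 6.11, 7.26 and 8.15 CPM at 12 h, against 8.09, 4.67 and 6.37 CPM at 1 h. Both overlapped. Hspa1a had 0.884, 0.403 and 0.974 CPM at 12 h, against 1.46, 1.53 and 0.777 CPM at 1 h. The median over members was 0.05. In the same comparison 2 of 4 tested microglial genes were higher (110.1 to 130.3 CPM at 12 h, 86.2 to 91.8 CPM at 1 h, P2ry12 at 0). Of 7 oligodendrocyte genes 2 were higher and 2 lower (2785 to 3255 CPM at 12 h, 3141 to 3392 CPM at 1 h), and of 10 endothelial genes 2 were higher and 1 lower (124 to 181 CPM at 12 h, 121 to 183 CPM at 1 h). Of 14 immediate early genes 6 were lower (377 to 470.4 CPM at 12 h, 502 to 666 CPM at 1 h). The log2 fold change across genes went with the length of the gene span at rho = 0.206. The part of these in the result was not tested.

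**Figure D4:**
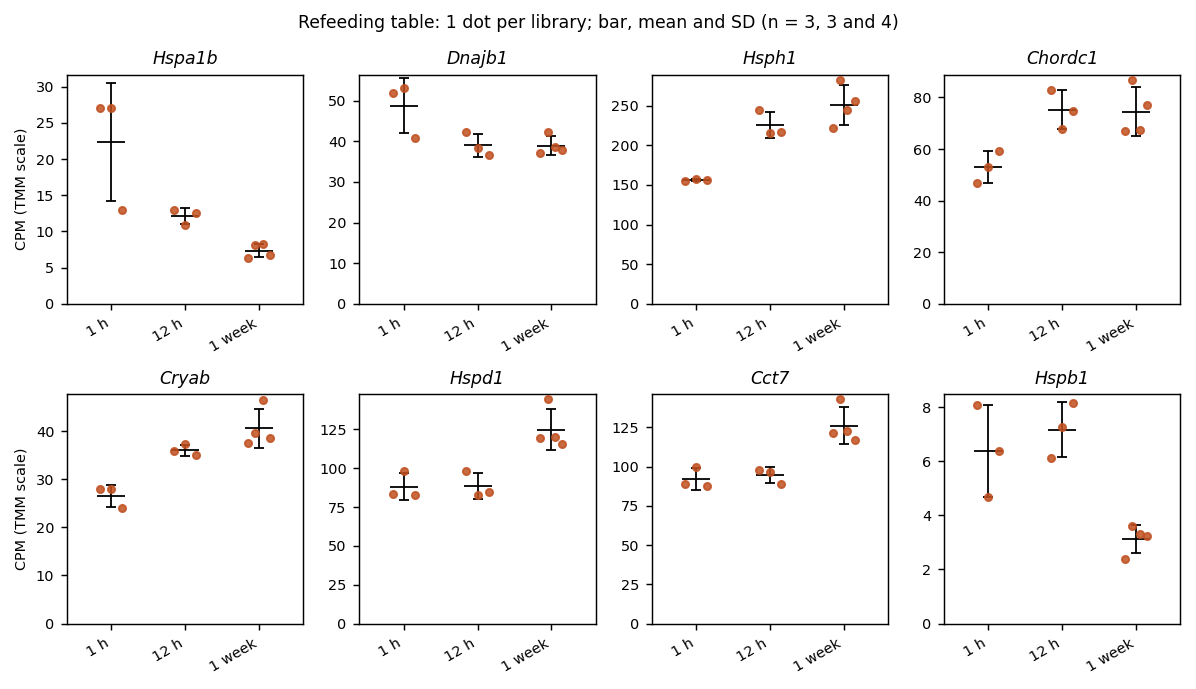
CPM (vertical axis, from 0) of 8 members in the 10 libraries of the refeeding table, at 1 h, 12 h and 1 week of refeeding after a 72 h fast. Dots are libraries, the long bar is the mean and the whisker the SD (n = 3, 3 and 4): Hsph1, Chordc1 and Cryab are higher at 12 h than at 1 h, Hspd1 and Cct7 are higher at 1 week than at 12 h, the means of Hspa1b and Dnajb1 are highest at 1 h, and Hspb1 is lowest at 1 week.

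Between 12 h and 1 week of refeeding 14 members rose and 3 fell, against 6.56% and 5% of all genes. Of the 7 CCT subunits 6 were higher at 1 week, as were both mitochondrial chaperonins, Hsp90aa1, Hspa4, Dnaja1 and the Hsp90 co-chaperones Ahsa1 (which speeds the Hsp90 ATPase), Fkbp4 (an immunophilin) and Ptges3 (p23). Cct8 had 128, 154, 128 and 124 CPM at 1 week, against 99.1, 85.1 and 77.98 CPM at 12 h (0.61 ± 0.09, adjusted p = 0.00121), and Hspd1 had 119, 144, 120.4 and 116 CPM at 1 week, against 98.1, 82.9 and 84.7 CPM at 12 h (0.50 ± 0.09, adjusted p = 0.00382). In both, every 1-week library was above every 12 h library. Next came Cct3 (0.41 ± 0.07), Cct7 (0.41 ± 0.08), Hsp90aa1 (639, 852, 663 and 698 CPM at 1 week, 584, 487 and 479 CPM at 12 h, 0.46 ± 0.10), Hspe1 (0.39 ± 0.08), Cct4 (0.38 ± 0.08) and Cct5 (0.37 ± 0.08). Hspb1 fell: it had 2.398, 3.59, 3.303 and 3.24 CPM at 1 week, against 6.11, 7.26 and 8.15 CPM at 12 h (-1.20 ± 0.18, adjusted p = 0.0013). The highest 1-week library was well below the lowest 12 h library. Dnajb5 (-0.34 ± 0.08) and Hsf1 (-0.29 ± 0.08) were lower too.

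Of these 17 calls 5 (Hspd1, Cct3, Cct7, Cct8 and Hspb1) were kept whichever library was left out. Without 12 h library 2 or 3 there were 8 or 5 calls, and without 1-week library 1 or 2 there were 10 in each case. With 1 surrogate variable 3 members were higher and 1 lower. Hspa8 (0.03 ± 0.08), Hsp90ab1 (0.18 ± 0.07, groups apart), Hspa1a (-0.12 ± 0.32), Hspa1b (-0.72 ± 0.24) and Dnajb1 (0.00 ± 0.09) did not pass. Blood genes were higher at 1 week in all 4 tested (401 to 1257 CPM at 1 week, 76.4 to 119.5 CPM at 12 h, Alas2 at 0), 3 of 5 astrocyte genes (918 to 1097 CPM at 1 week, 732 to 857 CPM at 12 h) and 4 of 7 oligodendrocyte genes (3102 to 3332 CPM at 1 week, 2785 to 3255 CPM at 12 h) were higher, and 4 of 10 endothelial genes were lower (108 to 121 CPM at 1 week, 124 to 181 CPM at 12 h). Of 6 tested meningeal genes 4 were higher (405 to 755 CPM at 1 week, 524 to 584 CPM at 12 h, Igf2 at 0). Markers of striatal projection neurons had 0 of 12 called, but their median log2 fold change was -0.81 (524 to 1481 CPM at 1 week, 1366 to 1753 CPM at 12 h). Libraries at 1 week were also the deepest of the series. The part of these in the result was not tested.

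Over the whole interval, 1 week against 1 h, 18 members were higher and 6 lower, against 13.5% and 13.5% of all genes, and the median of the 33 was 0.27 against 0.0012 over all genes. It shares its libraries with the other comparisons of the table. The limits given above for the 1-week libraries apply here too. Hsph1 had 222, 283, 244 and 256 CPM at 1 week, against 155, 157 and 156 CPM at 1 h (0.69 ± 0.08, adjusted p = 4.40e-05), and Hsp90aa1 had 639, 852, 663 and 698 CPM at 1 week, against 456, 492 and 452 CPM at 1 h (0.61 ± 0.10, adjusted p = 0.000531). Neither overlapped. Cryab (0.61 ± 0.08), Hspa4 (0.50 ± 0.07), Cct3 (0.46 ± 0.07), Cct7 (0.45 ± 0.08), Cct8 (0.53 ± 0.09), Hspd1 (0.50 ± 0.09) and Hspe1 (0.46 ± 0.08) followed by adjusted p. Hspa8 had 1301, 1573, 1378 and 1359 CPM at 1 week, against 1185, 1227 and 1157 CPM at 1 h (0.24 ± 0.08, adjusted p = 0.0306), without overlap. By class, 5 of 7 CCT subunits, 5 of 8 co-chaperones, 3 of 6 Hsp70 and Hsp110 chaperones and both mitochondrial chaperonins rose.

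The 6 that fell by 1 week were Hspa1b, Hspa1a, Hspb1, Dnajb1, Dnajb5 and Bag3, the Hsp70 co-chaperone that sorts aggregates for autophagy. Hspa1b had 6.29, 8.09, 8.23 and 6.78 CPM at 1 week, against 27.03, 27.03 and 12.9 CPM at 1 h (-1.60 ± 0.23, adjusted p = 0.00116). Every 1-week library was below every 1 h library. Hspb1 had 2.398, 3.59, 3.303 and 3.24 CPM at 1 week, against 8.09, 4.67 and 6.37 CPM at 1 h (-1.03 ± 0.18, adjusted p = 0.000923), and Dnajb1 had 37.1, 42.2, 38.5 and 37.97 CPM at 1 week, against 52.03, 53.3 and 40.96 CPM at 1 h (-0.32 ± 0.09, adjusted p = 0.0123). Hspb1 stood apart in all libraries, and in Dnajb1 1 h library 3 was inside the 1-week range. Bag3 (-0.28 ± 0.09), Dnajb5 (-0.44 ± 0.08) and Hspa1a (-0.84 ± 0.30) were also called lower. Hspa1a rests on few counts, with 0.652, 0.715, 0.585 and 0.835 CPM at 1 week, and its groups overlapped. Hsp90ab1 had 897, 927 and 809 CPM at 1 h, 893, 828 and 793 CPM at 12 h and 902, 1012, 964 and 906 CPM at 1 week, and did not pass (0.11 ± 0.07). Hsf1 had 42.4, 37.6, 41.6 and 44.1 CPM at 1 week and did not pass either (-0.05 ± 0.08). Of the 24 calls 18 were kept whichever library was left out, and 19 to 23 members were called in those fits. Here too all 4 tested blood genes (401 to 1257 CPM at 1 week, 68.4 to 123 CPM at 1 h, Alas2 at 0) and 3 of 5 astrocyte genes (918 to 1097 CPM at 1 week, 805 to 917 CPM at 1 h) were higher, and of 7 oligodendrocyte genes 5 were higher and 2 lower (3102 to 3332 CPM at 1 week, 3141 to 3392 CPM at 1 h). Of 8 markers of thalamic and cortical neurons 5 were lower and 1 higher (568 to 841 CPM at 1 week, 489 to 652 CPM at 1 h). Markers of striatal projection neurons had 1 of 12 lower (524 to 1481 CPM at 1 week, 691 to 1611 CPM at 1 h). Higher were 4 of 6 tested meningeal genes (405 to 755 CPM at 1 week, 505 to 850.3 CPM at 1 h, Igf2 at 0), 3 of 4 tested microglial genes (106 to 125 CPM at 1 week, 86.2 to 91.8 CPM at 1 h, P2ry12 at 0) and 3 of 5 ependymal genes (31.97 to 40.7 CPM at 1 week, 25.2 to 32.3 CPM at 1 h). Their part in the result was not tested.

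The fasting and refeeding tables share no library, so their calls can be set side by side as counts. Of the 20 members lower at 72 h of fasting, 12 (60%) were higher at 1 week than at 1 h of refeeding. These 12 made up 66.7% of the 18 members higher there, and those 18 were 54.5% of all 33. Among all 19516 genes tested in both tables, 359 of the 1518 lower at 72 h (23.6%) were higher at 1 week, against 13.7% of all genes. These 359 made up 13.5% of the 2665 genes higher at 1 week. The 12 were Hspa4, Hspa8, Hsph1, Hsp90aa1, Cryab, Hspd1, Dnaja1, Chordc1, Cct3, Cct4, Cct5 and Cct8. Lower in both were 4 members, Hspa1a, Hspa1b, Dnajb1 and Dnajb5, which is 20% of the 20, close to the 18.2% of all members lower at 1 week. Over all genes 165 of the 1518 (10.9%) were lower in both.

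One month after the fast few members differed from fed controls. In refed animals 3 of 33 members were higher and 1 lower than in controls, against 6.37% and 3.76% of all genes, and the median was -0.02. The shares of members called were thus near those of all genes. Hspb1 (ENSMUSG00000004951, chromosome 5, 135887919 to 135889563, plus strand) had 14.7, 21.6, 15.4 and 14.1 CPM in refed libraries 1, 2, 4 and 5, against 8.64, 5.42, 9.97 and 7.49 CPM in control libraries 2 to 5 (1.08 ± 0.18, adjusted p = 0.00137). Cryab (ENSMUSG00000032060, chromosome 9, 50751325 to 50756636, plus strand) had 85.6, 104, 97.7 and 71.7 CPM in refed libraries, against 57.8, 66.9, 52.5 and 70.4 CPM in controls (0.54 ± 0.11, adjusted p = 0.00885). In Hspb1 the groups were far apart, and in Cryab the lowest refed library was just above the highest control.

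Bag3 had 29.5, 33.3, 29.7 and 34.5 CPM in refed libraries, against 19.01, 24.2, 18.3 and 23.3 CPM in controls (0.58 ± 0.11, adjusted p = 0.0031). Hspa4l, an Hsp110-type chaperone, was lower, at 191, 201, 196 and 203 CPM in refed libraries, against 238, 257, 233 and 230.5 CPM in controls (-0.28 ± 0.06, adjusted p = 0.0114). Neither gene's groups overlapped. All 4 calls held without any 1 of the 8 libraries, but 0 members were called with 1 surrogate variable. The other 29 did not pass, among them Hspa1a (-0.21 ± 0.14), Hspa1b (-0.04 ± 0.12), Hspa8 (0.09 ± 0.08), Hsp90aa1 (0.10 ± 0.09), Hsp90ab1 (0.01 ± 0.07), Dnajb1 (-0.05 ± 0.09) and Hsf1 (-0.10 ± 0.09), and the CCT subunits lay within -0.12 to 0.08. Hspa8 had 2489, 2814, 2853 and 2782 CPM in refed libraries, against 2293, 2626, 2482 and 2860.5 CPM in controls. Hspa1b had 13.4, 15.3, 14.02 and 15.3 CPM in refed libraries, against 13.2, 15.8, 17.1 and 13.7 CPM in controls, and Hspa1a had 13.2, 18.9, 13.7 and 12.7 CPM in refed libraries, against 14.8, 17.6, 18.7 and 16.9 CPM in controls. All 3 overlapped. Hsp90aa1 averaged 997 ± 33.1 CPM in refed and 930.1 ± 129.8 CPM in control libraries (SD, n = 4 each). Hsp90ab1 averaged 1665 ± 76.3 and 1650.4 ± 81.6 CPM, Dnajb1 48.9 ± 4.16 and 50.5 ± 5.29 CPM and Hsf1 62.8 ± 6.02 and 67.4 ± 4.92 CPM in refed and control libraries.

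**Figure D5:**
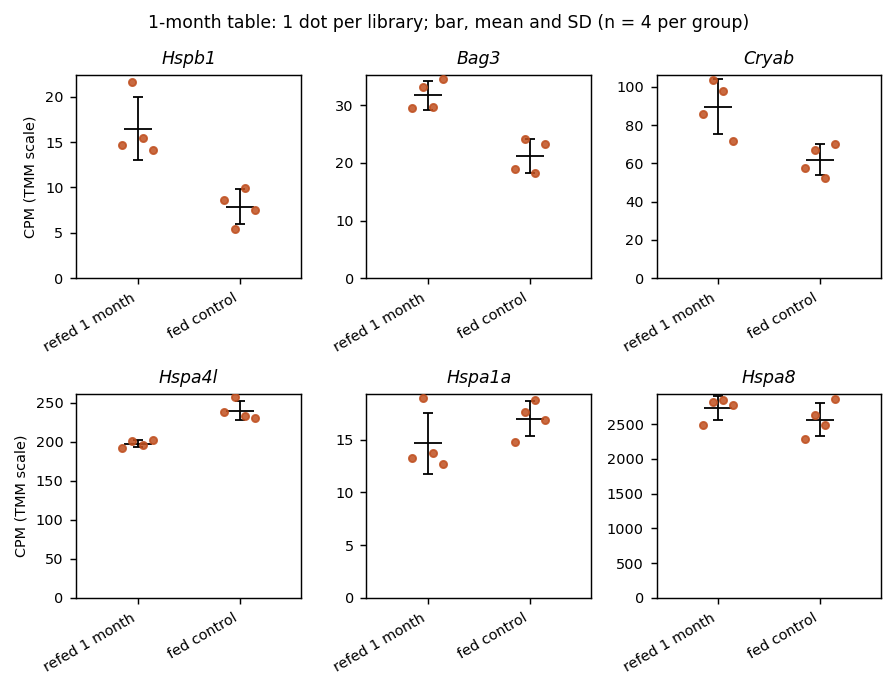
CPM (vertical axis, from 0) of 6 members in the 8 libraries of the 1-month table, refed animals left and fed controls right. Dots are libraries, the long bar is the mean and the whisker the SD (n = 4 per group): Hspb1, Bag3 and Cryab are higher and Hspa4l is lower in refed animals without overlap, and Hspa1a and Hspa8 overlap.

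Markers of other cells also differed between the 1-month groups. All 7 genes of meningeal cells were higher in refed animals (3275 to 5736 CPM in refed, 297 to 1272 CPM in control libraries), as were 6 of 10 endothelial genes (369 to 463 CPM in refed, 282 to 329 CPM in control libraries), 2 of 7 tested smooth muscle and pericyte genes (169 to 279 CPM in refed, 134 to 149 CPM in control libraries) and 2 of 7 oligodendrocyte genes (2498 to 3804 CPM in refed, 1808 to 2499 CPM in control libraries). None of these markers was at 0. Their part in the result was not tested.

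Genes of related families outside the 33 were counted in the same fits. Endoplasmic reticulum chaperones, which fold secreted proteins, had 13 of 19 tested genes lower and 0 higher at 72 h against fed (median -0.48), led by the disulphide isomerases Pdia4 (-0.90 ± 0.12) and Pdia6 (-0.66 ± 0.12) and by Hsp90b1 (-0.68 ± 0.13). Between 1 h and 1 week of refeeding 11 of 19 rose and 2 fell, with Calr at 243 ± 18.03 CPM at 1 week and 141 ± 5.92 CPM at 1 h (SD, n = 4 and n = 3; 0.79 ± 0.07). At 1 month 7 of 19 were higher in refed animals, among them P4hb (0.33 ± 0.07).

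Other Hsp90 co-chaperones were mixed: at 72 h 2 of 13 tested were higher and 4 lower than in fed animals. Fkbp5, an immunophilin induced by glucocorticoids, stood apart, at 72.5 ± 4.47 CPM at 24 h and 36.4 ± 0.984 CPM when fed (SD, n = 3 each; 0.99 ± 0.10, adjusted p = 0.00172), and at 31.1 ± 4.26 CPM at 12 h and 76.2 ± 11.7 CPM at 1 h of refeeding (-1.29 ± 0.11). Of 11 prefoldin and further CCT genes 3 were lower and 1 higher at 72 h against fed, and 5 were higher and 0 lower at 1 week against 1 h. Of 12 further Hsp70 family members and exchange factors 3 were lower at 72 h: Hspa2 (-0.78 ± 0.17), Hspa13 (-0.58 ± 0.13) and Bag1 (-0.48 ± 0.15).

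Of 14 other J proteins 0 passed at 72 h against fed and 3 were higher at 1 week against 1 h, among them Dnajb2 (0.34 ± 0.06). Of 10 other mitochondrial chaperones 1, Dnajc19 (-0.48 ± 0.13), was lower at 72 h, and Hspa9 (0.39 ± 0.07) and Grpel1 were higher at 1 week than at 12 h. Among small heat shock proteins Hspb8, the partner of Bag3, was higher at 1 month, at 22.2 ± 5.31 CPM in refed and 11.6 ± 2.91 CPM in control libraries (SD, n = 4 each; 0.94 ± 0.18, adjusted p = 0.00566), and Hspb6 was lower at 12 h than at 1 h of refeeding (-0.62 ± 0.15). Of 4 other heat shock factor genes Hsf3 was higher (0.90 ± 0.27) and Hsbp1, which binds heat shock factor 1, lower (-0.57 ± 0.14) at 72 h against fed.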

How the data were processed

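RNA was extracted with a Qiagen RNeasy kit and made into rRNA-depleted, strand-marking libraries, per the labels' protocols. Per the submitters' processing notes, HISAT2 and featureCounts were used with build mm10 (GRCm38), with no versions given. The authors deposited raw gene counts in 3 tables, and these counts are the only values tested. Their edgeR result tables were not used here. Among the deposited columns 2 match no library among the labels and were left out. In all, 30 libraries in 9 groups entered 9 comparisons.

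In R 4.3.3, edgeR 4.0.16 was run on each table with all its groups: filterByExpr, then TMM scaling, then robust quasi-likelihood F tests. The threshold was 0.05 after Benjamini-Hochberg adjustment over all genes tested, and the prior count 0.125. CPM is on the TMM scale. No test crossed tables. The tables differ in how genes that overlap were counted. Of protein-coding genes well counted 1 month after the fast, 244 of 265 that lie within another same-strand gene and 428 of 465 within an opposite-strand one were at 0 in all fasting and refeeding libraries. Of 6470 with no overlap, 0 were. Large overlaps are therefore named beside the values. The steps were also run on simulated counts with known changes.

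The members and the related and marker lists were chosen with earlier results of these data known. Hspa1a, Hspa1b, Hspa8, Hsp90aa1, Hsp90ab1, Hspb1, Dnajb1 and Hsf1 were described in every comparison, and called members with the smallest adjusted p were named, with up to 3 called genes per related list. Alternatives were DESeq2 1.42.0, RLE size factors, no filter on low counts, only the 2 groups compared, 1 surrogate variable (sva 3.50.0), a replicate block and leaving out each library. Promoters came from RefSeq and overlaps from GENCODE M21, both on GRCm38. Total counts per library ran from 9347942 to 64269426, so a gene of 1 CPM rests on fewest counts in the 1-month table.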

Additional observations from a re-analysis of the deposited data

Results flagged for a closer look

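In each group of 4 libraries, the highest and the lowest value of each member were checked for a gap to the next value that was large against the group's whole range. The 99 checks share libraries and are not independent, so their count cannot be read against a rate per check. Past the limit were 11 checks, where chance gives about 1 in 20 for a single check. In 6 of them refed 1 week library 2 stood above the rest of its group: Hspd1 at 144 CPM, against 116 to 120.4 CPM, St13 at 172 CPM, against 149 to 152 CPM, Ptges3 at 149 CPM, against 119 to 124 CPM, Cacybp at 62.6 CPM, against 47.9 to 50.3 CPM, Cct5 at 129 CPM, against 108 to 111 CPM, and Cct8 at 154 CPM, against 124 to 128 CPM. The same library was the highest of the 4 for 27 of the 33 members and for 30.2% of all genes tested. Without it 10 members were called between 12 h and 1 week, and 21 between 1 h and 1 week.

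The other 5 lay in the 1-month table. Among refed libraries Hspa1a stood out high in library 2 at 18.9 CPM, against 12.7 to 13.7 CPM, Hsf1 low in library 2 at 53.7 CPM, against 65.5 to 66.1 CPM, and Hsf2 low in library 1 at 39.2 CPM, against 42.9 to 43.2 CPM. Among the fed controls Hsp90ab1 stood out low in library 2 at 1529 CPM, against 1681 to 1697 CPM, and Ptges3 high in library 5 at 114 CPM, against 101 to 103 CPM. None of these 5 genes was called at 1 month.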

How the results depend on the processing

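Counts of members called stayed within 1.5 times under RLE size factors and without a filter on low counts in all 9 comparisons. With 1 surrogate variable the count was 0 for the 72 h fast against fed (5 genes in all, against 3072), 0 against the 24 h fast (35 against 333), 0 for the cold group against fed (121 against 3661), 4 for 1 week against 12 h (456 against 2304) and 0 at 1 month (135 against 1506). DESeq2 called 9 members for 72 h against 24 h (1725 genes, against 333), and it called 241 genes at 24 h against 7 and 4695 at 72 h against fed, where 28 members passed, and 57 for cold against 72 h, where edgeR called 0. With only the 2 groups compared 1 member was called for 72 h against 24 h and 4 for 12 h against 1 h. The cause was not tested. Without a filter 13 genes, and with 1 surrogate variable 63, were called at 24 h.

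Leaving out 1 library at a time gave 1 to 27 members for 72 h against fed, 0 to 3 for 72 h against 24 h, 1 to 21 for cold against fed, 4 to 8 for 12 h against 1 h, 5 to 20 for 1 week against 12 h, 19 to 23 for 1 week against 1 h and 4 to 5 at 1 month; for 24 h against fed and cold against 72 h it stayed at 0. The fits with fewer libraries have less power by construction. The share of all genes called in them is not given here, so these counts do not show a dependence particular to the members.

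The replicate block was tried although it is not known whether the numbers pair the samples. Deviations of same-numbered libraries correlated between -0.46 and 0.67 in the fasting table and between -0.16 and 0.51 in the refeeding table. In the 1-month table they correlated between -0.07 and 0.015. These ranges do not settle whether the numbers pair the samples. With the block 2 members were called at 1 month (408 genes in all, against 1506), 18 for 72 h against fed, 15 for cold against fed and 5 for 12 h against 1 h.

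Of the 91 member calls 0 changed direction under the alternatives checked. For left-out libraries only the fit with the largest adjusted p of each call was checked for direction. The fit of only the 2 groups compared was not run for the 1-month table, which holds 2 groups. All 91 held under DESeq2, 89 under RLE size factors, 88 without a filter and 31 with 1 surrogate variable, and 33 held whichever library was left out. Hspa1a had the fewest counts of all members in the fasting and refeeding tables, and Hspb1 in the 1-month table.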

Other observations

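Outside the chaperone families, the cold-inducible RNA-binding proteins Cirbp and Rbm3 and the immediate early genes, which neurons switch on within minutes of activity, were counted in the same fits. Of the 3 cold-inducible genes 1 was called at 72 h against fed. Cirbp was higher at 72 h than in fed animals, at 59.3 ± 5.99 CPM at 72 h and 38.8 ± 1.23 CPM when fed (SD, n = 3 each; edgeR 0.61 ± 0.09, adjusted p = 0.00651). It was lower at 12 h than at 1 h of refeeding, at 25.6 ± 1.59 CPM at 12 h and 58.2 ± 6.81 CPM at 1 h (-1.18 ± 0.13). Rbm3 was at 25.8 ± 2.96 CPM at 12 h and 72.5 ± 3.87 CPM at 1 h (-1.49 ± 0.13). Of 14 immediate early genes 11 were lower at 72 h than in fed animals and 10 lower than at 24 h, with 0 higher, and 12 were lower at 1 week than at 1 h of refeeding. Their summed level was 161 to 194 CPM at 72 h and 418 to 474 CPM in fed libraries.

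Of 14 genes of ubiquitin and the proteasome, the machinery that degrades what chaperones cannot refold, 0 passed at 72 h against fed. At 12 h of refeeding 5 were lower than at 1 h, among them Psmc4 (-0.33 ± 0.07) and the autophagy receptor Sqstm1 (-0.36 ± 0.09). At 1 week 9 were higher than at 12 h, led by Vcp (0.47 ± 0.07), the segregase that extracts ubiquitinated proteins.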
